A study of Mus musculus with 35 samples.

Results

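The 35 genes described here belong to glycolysis and to the response to low oxygen, and were measured in mouse neuroectoderm (NE) cells made from embryonic stem cells (ESCs). The members were the rows of the deposited RNA-seq tables whose symbol is on a list of 35 genes, and all 35 were present in each of the 3 tables, which together hold 18930 genes. The ESCs were the V6.5 line, which is male and of mixed strain background, and were differentiated with 1 µM retinoic acid (RA) and without LIF for 72 h, which is day 3. The labels give that time for every sample, but the steps in the study's methods for the Tet3-CD experiment, with transfection on day 2, add up to more than 72 h. The 3 genotypes were Tet3+/+, Tet3 m/m, in which the iron binding site of the catalytic domain of the DNA demethylase TET3 is changed so that the protein lacks its catalytic activity, and Tet3-/-, in which exon 4 is deleted. The mutant lines are edited clones (3 Tet3 m/m and 2 Tet3-/- clones on day 3), and which clones entered the transfection experiments is not given in the sources used here. The day 3 experiment had 3 Tet3+/+, 3 Tet3 m/m and 2 Tet3-/- samples without a vector. In the Dnmt1 experiment each genotype carried a vector for myc-tagged Dnmt1 or its empty counterpart from the ESC stage on, with 2 samples per genotype and vector. Per the study's methods, these cells were treated with blasticidin before collection, and no such step is given for the other experiments. In the Tet3-CD experiment each genotype received the catalytic domain of TET3 with an HA tag (called Tet3-CD) or the vector alone, which makes tdTomato, with 1 sample each. Because the samples are pools of many cells, fewer cells of a type and less RNA per cell cannot be told apart.

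Glycolysis turns glucose into pyruvate in a fixed series of enzyme steps, and lactate dehydrogenase and a lactate exporter allow it to run without oxygen. HIF1A, with its partner ARNT, is the transcription factor that induces most of these enzymes together when oxygen is low. Prolyl hydroxylases such as EGLN1 and EGLN3 use oxygen to mark HIF1A for destruction, and the EGLN3 gene is itself a HIF target. HIF protein and its activity were not measured here. ESCs are known for a high rate of glycolysis, which falls as many lineages form. The hydroxylases, several histone demethylases and the TET enzymes all use iron, oxygen and 2-oxoglutarate.

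HIF binds the letters ACGTG or GCGTG, and these letters were searched on both strands in the 250 bases before each RefSeq gene start (GRCm38.p6). The promoter table held 33 of the 35 members, with the exceptions of Slc2a3 and Ndrg1, and 30 of those 33 genes had at least 1 match in at least 1 start window. Among all 27025 genes of the table, 41.5% had a match. Both core motifs contain a CpG, and the member windows held a median of 14 CpG dinucleotides against 6 over all windows. A palindrome CACGTG counts once on each strand, and the windows of alternative starts of one gene can overlap. Gpi1, Tpi1 and Eno2 had no match in these windows. The windows of 4 members that fell in Tet3-/- cells with the empty vector, and of Tpi1, which fell too but holds no match, are shown 5′ to 3′ up to the base before the start, with the matched letters in capitals. Ldha and Pgk1 are on the plus strand, at chr7:46845554-46845803 and chrX:106186850-106187099, and Bnip3, Ankrd37 and Tpi1 are on the minus strand, at chr7:138909507-138909756, chr8:45999851-46000100 and chr6:124814159-124814408.
Ldha: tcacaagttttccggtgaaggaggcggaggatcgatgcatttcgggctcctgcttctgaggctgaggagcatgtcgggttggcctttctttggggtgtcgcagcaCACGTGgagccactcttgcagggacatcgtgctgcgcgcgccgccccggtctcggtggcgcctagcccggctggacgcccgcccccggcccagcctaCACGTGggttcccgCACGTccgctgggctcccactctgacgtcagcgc
Pgk1: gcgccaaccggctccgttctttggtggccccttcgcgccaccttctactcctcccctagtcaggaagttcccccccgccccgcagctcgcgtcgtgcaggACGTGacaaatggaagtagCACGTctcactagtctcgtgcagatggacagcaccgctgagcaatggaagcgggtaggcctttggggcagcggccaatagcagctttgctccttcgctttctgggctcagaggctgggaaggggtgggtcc
Bnip3: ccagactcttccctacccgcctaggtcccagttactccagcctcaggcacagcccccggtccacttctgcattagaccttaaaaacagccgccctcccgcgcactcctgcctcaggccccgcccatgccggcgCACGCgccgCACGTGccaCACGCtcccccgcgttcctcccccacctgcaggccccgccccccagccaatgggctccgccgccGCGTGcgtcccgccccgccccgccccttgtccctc
Ankrd37: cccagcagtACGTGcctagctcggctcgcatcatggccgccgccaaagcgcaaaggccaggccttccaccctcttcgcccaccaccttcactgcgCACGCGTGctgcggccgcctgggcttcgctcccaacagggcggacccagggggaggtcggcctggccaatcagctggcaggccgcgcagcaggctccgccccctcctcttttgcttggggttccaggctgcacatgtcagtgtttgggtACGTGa
Tpi1: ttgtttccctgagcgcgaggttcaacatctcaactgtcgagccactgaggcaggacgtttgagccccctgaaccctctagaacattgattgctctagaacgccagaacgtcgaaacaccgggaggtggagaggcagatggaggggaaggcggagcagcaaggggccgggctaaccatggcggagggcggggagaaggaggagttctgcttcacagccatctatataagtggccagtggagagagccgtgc
A match is a description of the letters only. Hif1a, which did not pass the threshold in any comparison, held 3 matches in its own window.

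Recovered reads per sample lay between 31155842 and 50845950 over the 26 samples. Values are normalized counts, that is, reads divided by the size factor of the sample, and each experiment was normalized on its own, so levels were compared only within an experiment. The replicates of a group in the Dnmt1 experiment differed far less (chi-square per degree of freedom from 3.91 to 10.8) than those on day 3 (13.5 to 85.5), and nothing in the labels says that they came from separate cultures. Their p-values may therefore measure technical spread only. The threshold for a call was an adjusted p under 0.05, from limma over all genes of the experiment, together with a change of more than 1.5-fold. Tet3 RNA counts the whole gene and does not see the point mutations or the short deleted exon, and its log2 fold change against Tet3+/+ was -1.05 for Tet3 m/m and -1.21 for Tet3-/- on day 3, against -1.53 and -0.24 for the same genotypes with the empty vector in the Dnmt1 experiment. The Dnmt1 vector raised Dnmt1 RNA by 0.64 (Tet3+/+), 0.90 (Tet3 m/m) and 1.06 (Tet3-/-) on the log2 scale.

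Glycolytic enzymes were among the most abundant members when levels were compared per kilobase of exon (union of exons, GENCODE M21). In Tet3+/+ day 3 cells Gapdh, which makes NADH in the middle of the pathway, stood at 26670.1 ± 498 normalized counts per kb (SD, 3 samples), ahead of Eno1 (enolase) at 16338 ± 619 and Pkm (pyruvate kinase) at 15834 ± 1183. The next 2, Aldoa (aldolase) at 10338 ± 1687 and the glucose transporter gene Slc2a1 at 10311 ± 635, did not differ beyond their spread, nor did Eno1 and Pkm. The rare members were Car9, a carbonic anhydrase that regulates pH in hypoxia, at 49.2 ± 10.8, and Pfkfb4, which makes the activator of phosphofructokinase, at 63.8 ± 2.41 normalized counts per kb. Hif1a itself ranked number 16 of the 35 members by level per kb. Retrocopies of Gapdh, Pgk1, Ldha, Aldoa and other enzymes, and the near-identical Eno1b, can share reads with their parent genes, so these levels carry that uncertainty.

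**Figure D1:**
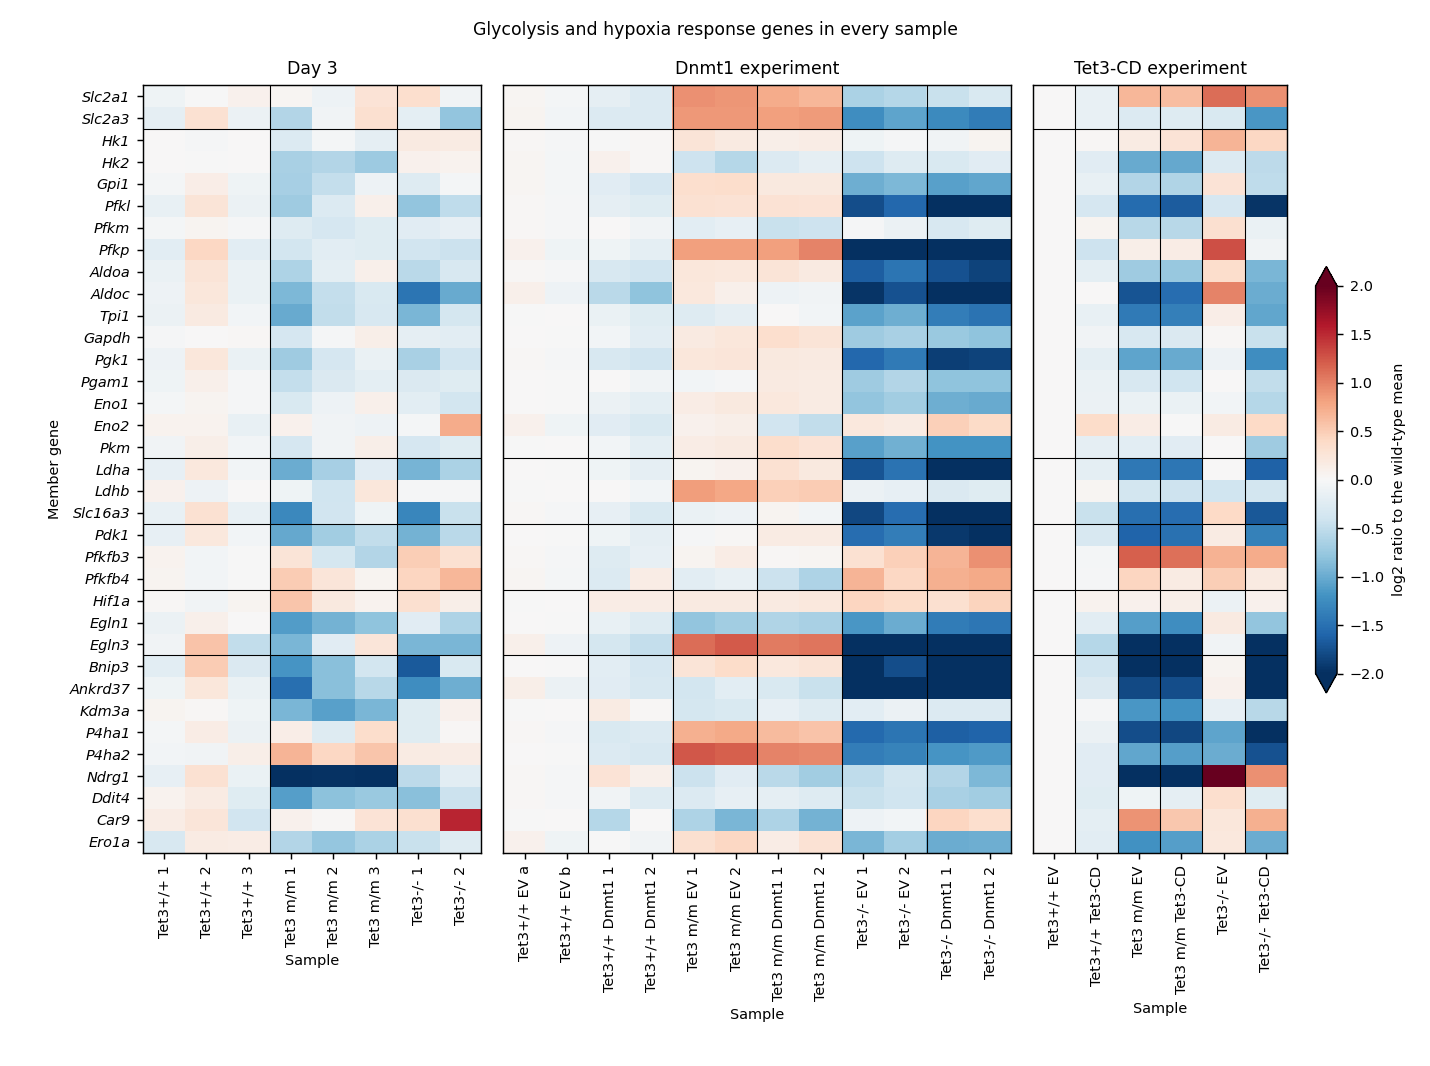
Each column is 1 sample and each row 1 of the 35 genes, grouped by role; color is the log2 ratio of the value plus 1 to the mean of the Tet3+/+ samples (empty vector in the transfection experiments) of the same experiment, cut at 2 in either direction. In the Dnmt1 experiment many genes are above the Tet3+/+ mean in Tet3 m/m and most are below it in Tet3-/-, and in the Tet3-CD experiment most are below it in Tet3 m/m with either vector and in Tet3-/- with Tet3-CD.

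The first comparison, on day 3, set Tet3 m/m against Tet3+/+. Tet3 RNA was itself lower in Tet3 m/m, with a log2 fold change of -1.05. The part of lost catalytic activity, of lower Tet3 RNA or of clone editing in the differences below was not tested. In Tet3 m/m cells 0 members passed the threshold as higher and 9 as lower: Hk2, Ldha, Pdk1, Egln1, Ankrd37, Kdm3a, Ndrg1, Ddit4 and Ero1a. Of the 9, 5 belong to the group of other hypoxia response genes, and only 1 of the 15 glycolytic enzymes, Hk2, was among them. Of all genes tested, 10.2% passed the threshold, and 5.19% passed it as lower. The median log2 fold change was -0.29 over the members and 0.00081 over all genes. At an unadjusted p under 0.05 the limma test found 2 higher members, and edgeR and DESeq2 called 0 higher. By the adjusted p of limma alone, 1 member was higher, below the fold threshold, and 9 were lower. Of all genes, 6.59% were higher and 7.28% lower by that rule.

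Ndrg1, a stress gene induced by hypoxia, changed most. Its normalized counts were 641, 889 and 655 (Tet3+/+), 179, 182 and 114 (Tet3 m/m) and 498 and 625 (Tet3-/-), so that every Tet3 m/m sample was below every other sample, with a log2 fold change of -2.21 ± 0.22 (SE) and an adjusted p of 0.000182. Ddit4, an inhibitor of mTORC1 signalling, stood at 6174, 6581 and 4977 (Tet3+/+), 2728, 3318 and 3492 (Tet3 m/m) and 3275 and 4358 (Tet3-/-). The Tet3 m/m and Tet3+/+ samples did not overlap (-0.89 ± 0.14 (SE), adjusted p = 0.00291). Ero1a, an oxidase that helps disulfide bonds form in the endoplasmic reticulum, stood at 2812, 3929 and 3865 (Tet3+/+), 2316, 2044 and 2251 (Tet3 m/m) and 2576 and 2920.3 (Tet3-/-) and differed by -0.67 ± 0.13 (SE) on the log2 scale (adjusted p = 0.00839).

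A pair of the lowered genes steer pyruvate away from the mitochondria. Ldha, the subunit of lactate dehydrogenase that favors lactate, stood at 26836, 34797 and 28644 (Tet3+/+), 14958, 18874 and 25665 (Tet3 m/m) and 15629 and 19256 (Tet3-/-) (-0.63 ± 0.18 (SE) in Tet3 m/m, adjusted p = 0.042). Pdk1, the kinase that switches off pyruvate dehydrogenase, stood at 2861, 3713 and 3082 (Tet3+/+), 1579, 1975 and 2265 (Tet3 m/m) and 1662 and 2205 (Tet3-/-) (-0.74 ± 0.16 (SE), adjusted p = 0.0119). For both genes the Tet3 m/m groups lay below the Tet3+/+ groups without overlap, which also held for 18.3% of all genes. Tet3 m/m replicate 3 was close to the lowest Tet3+/+ sample for Ldha. Within the genotype the samples differed: replicate 1 was the lowest Tet3 m/m sample for 21 of the 35 members and replicate 3 the highest for 25. Among the Tet3+/+ samples, replicate 2 was the highest for 24 of 35. Without that Tet3+/+ sample 5 members passed the threshold, and the calls of Ldha, Pdk1, Ankrd37 and Ero1a were lost. Ldha (adjusted p up to 0.151) and Ankrd37 (up to 0.154) also lost their calls without any 1 of the other 2 Tet3+/+ samples or of Tet3 m/m replicates 1 and 2.

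Of the 9 lowered members, 4 lie on chromosomes 6 and 8, where neighboring genes were lower in Tet3 m/m as well. Hk2, the inducible hexokinase, stood at 6244, 6194 and 6225 (Tet3+/+), 3983, 4143 and 3750.3 (Tet3 m/m) and 6591 and 6557 (Tet3-/-) (-0.65 ± 0.078 (SE), adjusted p = 0.000518). Kdm3a, a histone H3K9 demethylase that is a HIF target, stood at 4127, 4047 and 3726 (Tet3+/+), 2097, 1861 and 2101 (Tet3 m/m) and 3340.4 and 4189.8 (Tet3-/-) (-0.97 ± 0.11 (SE), adjusted p = 0.000337). Both were low in all 3 Tet3 m/m samples and close to Tet3+/+ in Tet3-/-. The 50 tested genes nearest to Hk2 on chromosome 6, the chromosome that carries Tet3, had a median log2 fold change of -0.86 with 46 lower, and the 50 nearest to Kdm3a a median of -0.90 with 46 lower. The other 5 members on chromosome 6 (Slc2a3, Eno2, Tpi1, Gapdh and Ldhb) lie beyond this stretch, among neighbors with medians between 0.035 and 0.050, and none of them passed the threshold.

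On chromosome 8, whose median log2 fold change was -0.34 over 867 genes, lie Egln1 and Ankrd37. Egln1, the main oxygen sensor of the HIF pathway, stood at 5632, 6565 and 6100.3 (Tet3+/+), 2821, 3164 and 3485 (Tet3 m/m) and 5210.0 and 3986 (Tet3-/-) (-0.95 ± 0.12 (SE), adjusted p = 0.000757), and its 50 nearest genes had a median of -0.34. Ankrd37, a small HIF target, stood at 167, 208 and 161 (Tet3+/+), 61.5, 98.6 and 120.2 (Tet3 m/m) and 74.2 and 89.9 (Tet3-/-) (-0.97 ± 0.28 (SE), adjusted p = 0.0448), with a median of -0.28 in its 50 nearest genes. Both members are listed because they were called lower by more than 1.5-fold, so a fall beyond these medians followed from the selection. Of the 26 members outside chromosomes 6 and 8, 5 passed the threshold. The share of all genes outside these chromosomes is not given here, so this count has no matching background. The part of the chromosome in the calls of these 4 genes was not tested.

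**Figure D2:**
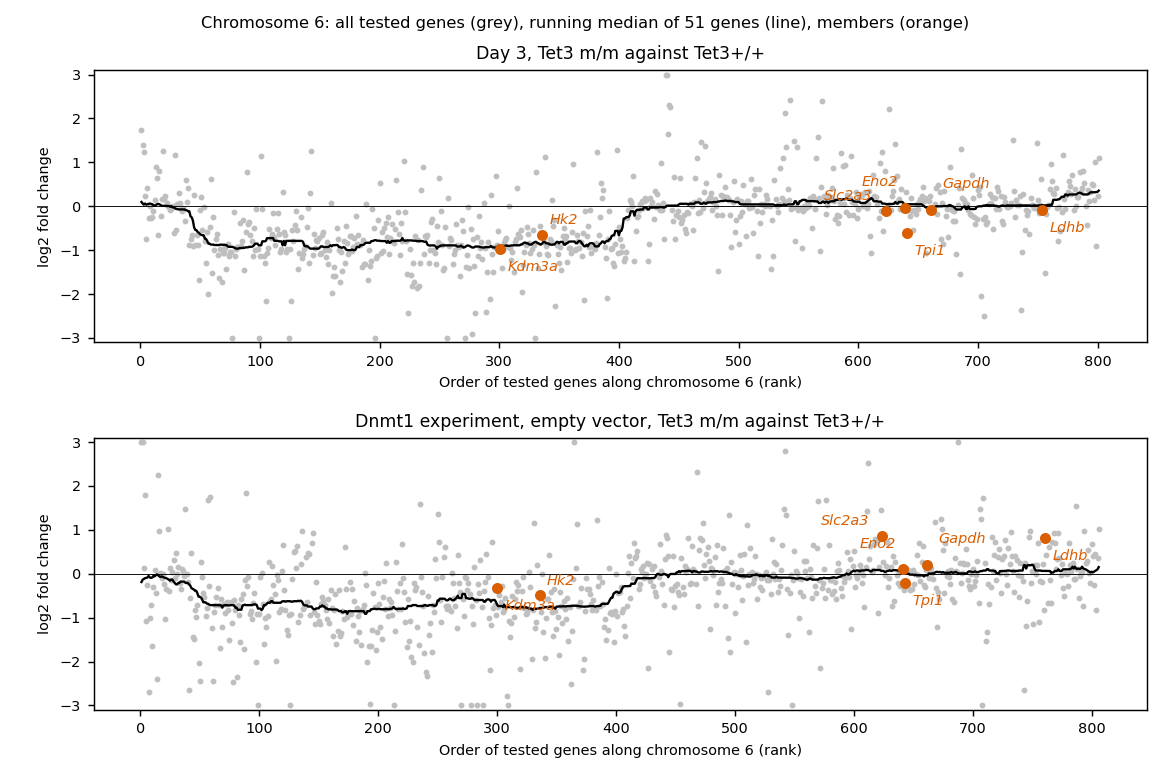
Grey points are all tested genes of chromosome 6 in their order along the chromosome (x axis, rank), with the log2 fold change of Tet3 m/m against Tet3+/+ on the y axis, limited to 3 in either direction; the line is the running median of 51 genes and orange points are the 7 members on this chromosome. Hk2 and Kdm3a sit inside the lowered stretch in both experiments, and the other 5 members lie outside it.

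In Tet3-/- cells on day 3 the only call was Aldoc, the brain form of aldolase. It stood at 609, 766 and 595 (Tet3+/+), 348, 469.6 and 527 (Tet3 m/m) and 235 and 323 (Tet3-/-), lowest in the Tet3-/- samples, with a log2 fold change of -1.24 ± 0.22 (SE) and an adjusted p of 0.0471. The call did not hold without any 1 of the 3 Tet3+/+ samples, either Tet3-/- sample or replicate 2 of Tet3 m/m (adjusted p from 0.0798 to 0.166), and 7 members passed without Tet3 m/m replicate 1 in the fit and 3 without Tet3 m/m replicate 3. Of all genes, 0.642% passed the threshold in this comparison and 0.184% passed it as lower. Of the 35 members, 26 had a negative log2 fold change, with a median of -0.29 over the members against -0.014 over all genes. No member was called higher by limma, edgeR or DESeq2, although 2 had an unadjusted p under 0.05 in that direction. In the other direction 15 members had an unadjusted p under 0.05 by limma, and DESeq2 called 6 lower. The 2 groups did not overlap for 28 of the 35 members, against 41.2% of all genes. Of the 35, 21 were lower without overlap, against 20.4% of all genes. The 2 Tet3-/- samples differed from each other: Bnip3, a mitophagy receptor induced by HIF, stood at 676 and 1746 normalized counts against 1859, 3054 and 1766 in Tet3+/+ cells.

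Against Tet3 m/m cells, 3 members were higher in Tet3-/- cells: Hk2, by 0.73 ± 0.087 (SE) on the log2 scale (adjusted p = 0.00082), Kdm3a by 0.89 ± 0.12 (SE) (adjusted p = 0.00144) and Ndrg1 by 1.84 ± 0.24 (SE) (adjusted p = 0.00135). For all 3 the groups did not overlap, which held for 12 of the 35 members and 41.0% of all genes. The threshold was passed by 9.73% of all genes, and as higher by 5.41%. No member was lower by limma, where 2 had an unadjusted p under 0.05, or by edgeR, and DESeq2 called 1 lower. Without Tet3 m/m replicate 1 or Tet3-/- replicate 1, 5 members were called. Hk2 and Kdm3a lie in the stretch of chromosome 6 that was low in Tet3 m/m. In this comparison the median log2 fold change of chromosome 6 was 0.21, with 281 of 801 genes lower. The part of the chromosome in these calls was not tested. This comparison shares its Tet3 m/m and Tet3-/- samples with the 2 comparisons above.

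Hif1a, the gene of the transcription factor itself, did not fall on day 3. Its normalized counts were 8126, 7629.7 and 8297 (Tet3+/+), 11804, 9149 and 8424 (Tet3 m/m) and 9972 and 8649 (Tet3-/-), and the Tet3 m/m and Tet3-/- samples were all above the Tet3+/+ samples, but the differences of 0.27 ± 0.12 (SE) and 0.21 ± 0.14 (SE) on the log2 scale did not pass the test (adjusted p = 0.172 and 0.412). Against Tet3+/+ with the empty vector, 19 members passed the threshold that passed in no day 3 comparison, among them Pgk1, Pfkl and Aldoa. The day 3 log2 fold changes of these 3 genes in Tet3-/- were -0.52, -0.65 and -0.44 with SE of 0.17, 0.21 and 0.19.

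In the Dnmt1 experiment the genotypes were far apart. With the empty vector, 23 of the 35 members passed the threshold as lower in Tet3-/- cells and 0 as higher. The 23 included an enzyme of every glycolytic step after hexokinase. By role, the falls took in both glucose transporters, 11 of 15 glycolytic enzymes, 2 of 3 lactate genes, 1 of 3 flux kinases, 2 of 3 oxygen sensing genes and 5 of 9 other hypoxia response genes. Of all genes tested, 24.9% passed the threshold in this comparison and 13.9% passed it as lower. The median log2 fold change was -0.93 over the members and 0.0034 over all genes. By the adjusted p of limma alone, 28 members were lower and 3 higher, against 26.6% and 26.7% of all genes. None of these 3 passed the fold threshold, and edgeR and DESeq2 called 0 higher. The groups of all 35 members did not overlap, which also held for 77.1% of all genes.

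**Figure D3:**
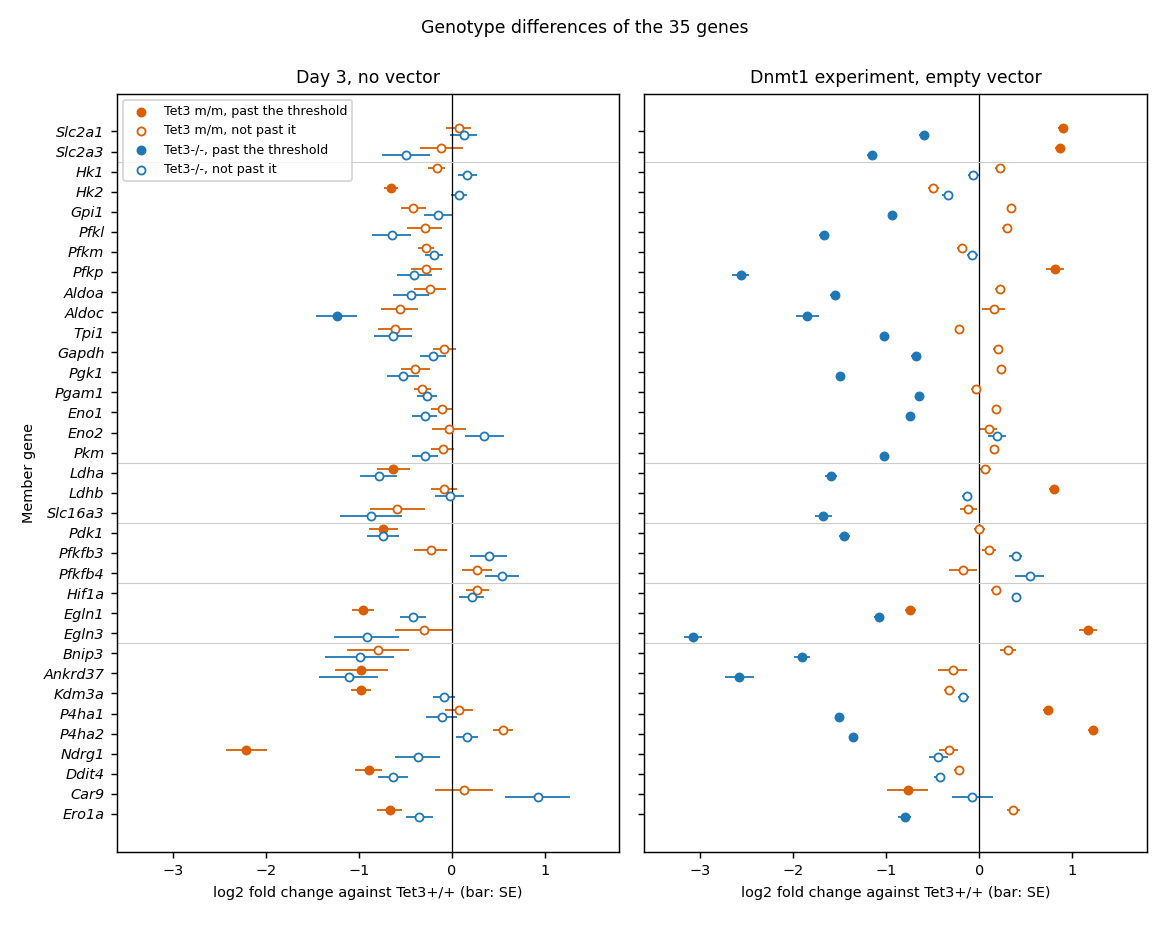
Points are log2 fold changes against Tet3+/+ for each of the 35 genes, with bars for the SE, in Tet3 m/m (orange) and Tet3-/- (blue), and filled points passed the threshold. On day 3 (left) most points of both genotypes lie a little below 0, and with the empty vector (right) the Tet3-/- points reach -3.08 while 7 Tet3 m/m genes are past the threshold above 0.

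The largest fall was that of Egln3. Its normalized counts with the empty vector were 2071 and 1816 (Tet3+/+), 4205 and 4531 (Tet3 m/m) and 212 and 248 (Tet3-/-), which is 8.43-fold lower in Tet3-/- than in Tet3+/+ (log2 fold change -3.08 ± 0.10 (SE), adjusted p = 4.81e-16). Ankrd37 stood at 469 and 398 (Tet3+/+), 334 and 375 (Tet3 m/m) and 73.1 and 69.8 (Tet3-/-), 5.98-fold lower in Tet3-/- (-2.58 ± 0.16 (SE)). Bnip3 stood at 5208 and 5125 (Tet3+/+), 6165 and 6676 (Tet3 m/m) and 1254 and 1517 (Tet3-/-), 3.74-fold lower in Tet3-/- (-1.90 ± 0.087 (SE)). For Egln3 and Bnip3 the order was Tet3 m/m, Tet3+/+, Tet3-/- with no overlap between any of the groups. Egln1, the other hydroxylase gene, stood at 8483 and 8344 (Tet3+/+), 4879 and 5207 (Tet3 m/m) and 3741 and 4250.0 (Tet3-/-) and was low in both mutants (-0.74 ± 0.058 (SE) and -1.08 ± 0.058 (SE)). On chromosome 8, whose median log2 fold change in Tet3-/- was -0.38 here, the 50 nearest genes had medians of -0.27 for Egln1 and -0.44 for Ankrd37.

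P4ha1 and P4ha2 make the hydroxylases that stabilize collagen and are HIF targets. P4ha1 stood at 10664 and 10345 (Tet3+/+), 17232 and 17762 (Tet3 m/m) and 3583 and 3802 (Tet3-/-), and P4ha2 at 4252 and 4197 (Tet3+/+), 9949.9 and 9712 (Tet3 m/m) and 1627 and 1678 (Tet3-/-). Both were higher in Tet3 m/m (0.74 ± 0.045 (SE) and 1.22 ± 0.049 (SE)) and lower in Tet3-/- (-1.51 ± 0.045 (SE) and -1.35 ± 0.049 (SE)), with adjusted p of 1.55e-11 or less in all 4 tests. Ero1a stood at 4967 and 4429.6 (Tet3+/+), 5874 and 6236 (Tet3 m/m) and 2498 and 2914 (Tet3-/-) and fell in Tet3-/- by 1.74-fold. Car9, at 145 and 146 (Tet3+/+), 94.1 and 76.8 (Tet3 m/m) and 136 and 141 (Tet3-/-), was lower in Tet3 m/m (-0.77 ± 0.22 (SE), adjusted p = 0.00669), and this call was lost without Tet3 m/m replicate 2 (adjusted p = 0.0695).

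Glucose enters through SLC2A1 and SLC2A3. Slc2a1 stood at 60773 and 57766 (Tet3+/+), 111780.0 and 109172 (Tet3 m/m) and 38221 and 40074 (Tet3-/-), and Slc2a3 at 100084 and 92932 (Tet3+/+), 175672 and 175779 (Tet3 m/m) and 40564 and 46576 (Tet3-/-). The order Tet3 m/m, Tet3+/+, Tet3-/- held for both without overlap. Slc2a1 rose 1.86-fold in Tet3 m/m and fell 1.51-fold in Tet3-/-, and Slc2a3 rose 1.82-fold and fell 2.22-fold. The fall of Slc2a1 went below the fold threshold without Tet3-/- replicate 1 or without Tet3+/+ sample a.

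Among the glycolytic enzymes Pfkp changed most. Pfkp, the platelet form of phosphofructokinase, stood at 3166 and 2818 (Tet3+/+), 5251 and 5261 (Tet3 m/m) and 439 and 578 (Tet3-/-), 1.76-fold higher in Tet3 m/m and 5.92-fold lower in Tet3-/- (0.82 ± 0.093 (SE) and -2.57 ± 0.093 (SE)). Pfkl, the liver form and the more abundant one, stood at 27629 and 26599.8 (Tet3+/+), 33658 and 33096 (Tet3 m/m) and 7969 and 9125 (Tet3-/-) and fell 3.18-fold in Tet3-/-. The muscle form Pfkm did not pass the threshold in any of the comparisons and ranged from 2146 to 2968 normalized counts over the 12 samples of the experiment. Aldoc stood at 1809.8 and 1582 (Tet3+/+), 1949 and 1818 (Tet3 m/m) and 434 and 507 (Tet3-/-) and fell 3.60-fold in Tet3-/-. Aldoa stood at 94272 and 90629 (Tet3+/+), 108596 and 106888 (Tet3 m/m) and 29609 and 33607 (Tet3-/-) and fell 2.93-fold.

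Genes of the later steps fell in Tet3-/- as well. Pgk1, the first step that yields ATP, stood at 47810.2 and 45788 (Tet3+/+), 55004 and 55249 (Tet3 m/m) and 15683 and 17579.7 (Tet3-/-) (-1.49 ± 0.047 (SE) in Tet3-/-, adjusted p = 3.93e-16). Tpi1 stood at 28676 and 28735 (Tet3+/+), 24113 and 25366 (Tet3 m/m) and 13689.7 and 14573 (Tet3-/-) (-1.02 ± 0.048 (SE)), and Pkm at 140573 and 141005 (Tet3+/+), 155889 and 158671 (Tet3 m/m) and 66666 and 72213 (Tet3-/-) (-1.02 ± 0.048 (SE)). Gpi1, which turns glucose 6-phosphate into fructose 6-phosphate, stood at 37121 and 35280.4 (Tet3+/+), 45546 and 46044 (Tet3 m/m) and 18484 and 19454 (Tet3-/-) (-0.93 ± 0.044 (SE)). For all 4 genes the 2 Tet3-/- samples were the lowest, and Tpi1 alone was lower in Tet3 m/m than in Tet3+/+. Smaller falls were found for Eno1, at 122104 and 121179 (Tet3+/+), 134957 and 139941 (Tet3 m/m) and 70267 and 74854 (Tet3-/-) (-0.75 ± 0.042 (SE)), and for Gapdh, at 150388 and 148863 (Tet3+/+), 168929 and 175068 (Tet3 m/m) and 91526 and 95204 (Tet3-/-) (-0.68 ± 0.048 (SE)). Both were highest in Tet3 m/m, with no overlap between the genotypes. Pgam1, at 14996 and 14937 (Tet3+/+), 14478 and 14654 (Tet3 m/m) and 9177 and 9993 (Tet3-/-), fell by 1.56-fold, which was below the fold threshold without Tet3-/- replicate 1. Hexokinase stood apart: Hk1 and Hk2, with log2 fold changes of -0.06 and -0.34, did not pass the threshold in Tet3-/-, and Hk2 stood at 7329.9 and 6949 (Tet3+/+), 5340.1 and 4803 (Tet3 m/m) and 5336 and 5959 (Tet3-/-).

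Lactate genes split by isozyme. Ldha stood at 65918 and 64629.6 (Tet3+/+), 67512 and 68940.3 (Tet3 m/m) and 19786 and 23566 (Tet3-/-), 3.02-fold lower in Tet3-/-, and Slc16a3, the lactate exporter MCT4, at 14958 and 14429 (Tet3+/+), 13436 and 13668 (Tet3 m/m) and 4162 and 5085 (Tet3-/-), 3.19-fold lower. Ldhb, which favors the return of lactate to pyruvate, stood at 3112 and 3136 (Tet3+/+), 5558 and 5349 (Tet3 m/m) and 2892 and 2796 (Tet3-/-), higher in Tet3 m/m (0.80 ± 0.051 (SE), adjusted p = 2.39e-11) and with no call in Tet3-/- (-0.14 ± 0.051 (SE)). Pdk1, at 5559.6 and 5486 (Tet3+/+), 5442 and 5608 (Tet3 m/m) and 1920.3 and 2128 (Tet3-/-), fell 2.73-fold in Tet3-/- while Tet3 m/m and Tet3+/+ overlapped. The paralog kinases that make fructose 2,6-bisphosphate did not pass the fold threshold against Tet3+/+, with log2 fold changes of 0.39 ± 0.074 (SE) for Pfkfb3 and 0.54 ± 0.16 (SE) for Pfkfb4 in Tet3-/-.

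**Figure D4:**
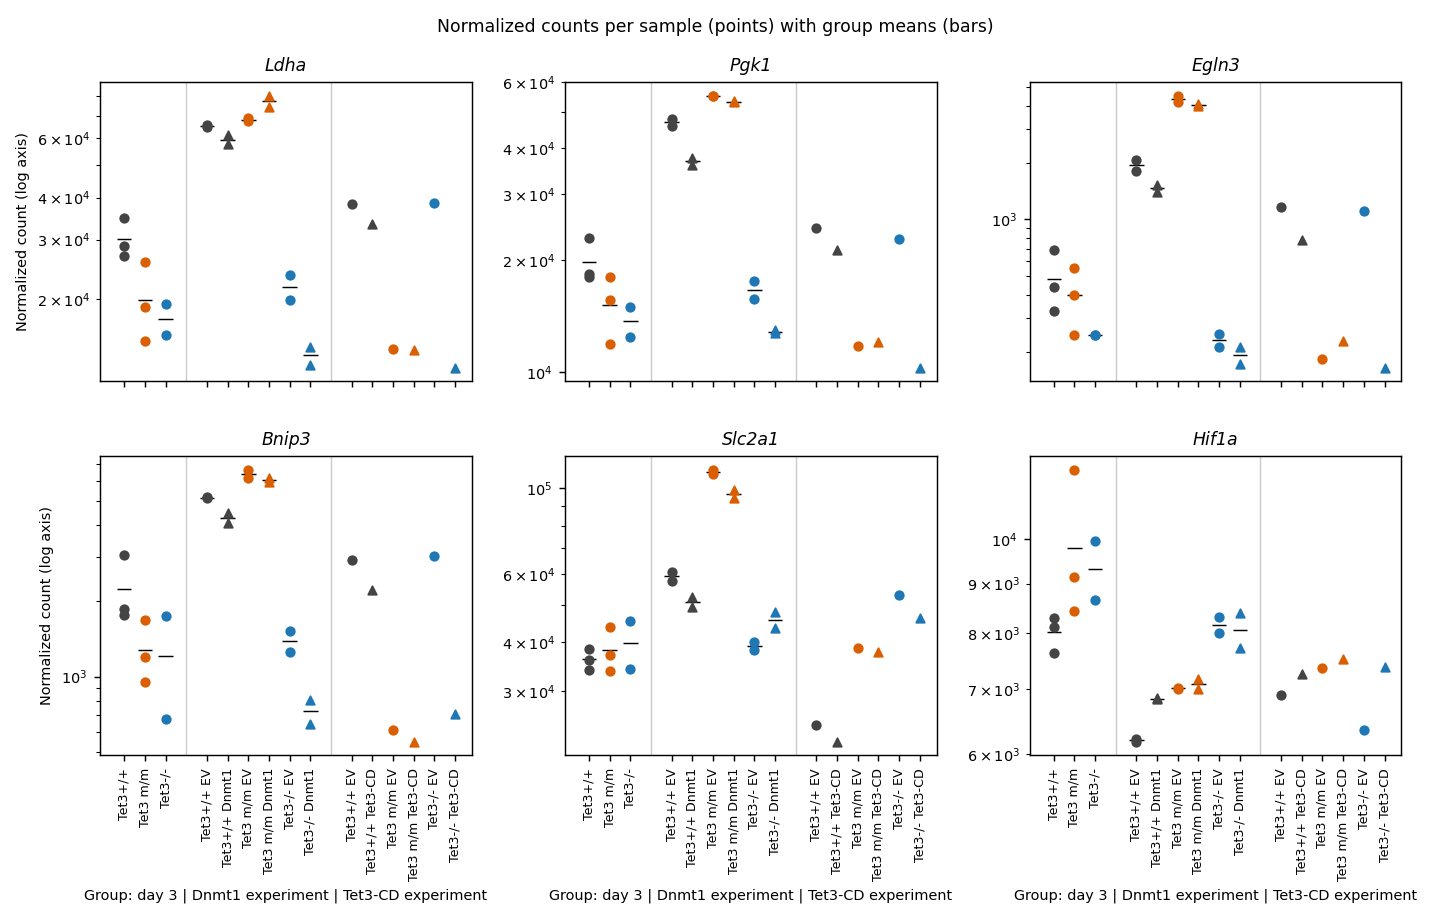
Normalized counts (log axis) of 6 members in every sample, with 1 point per sample, a bar for the group mean, color for the genotype and triangles for the Dnmt1 or Tet3-CD vector; grey lines separate the 3 experiments. Ldha, Pgk1, Egln3 and Bnip3 are low in Tet3-/- of the Dnmt1 experiment, in Tet3 m/m of the Tet3-CD experiment and in Tet3-/- with Tet3-CD, and Hif1a shows no such pattern.

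In Tet3 m/m cells with the empty vector 7 members rose (Slc2a1, Slc2a3, Pfkp, Ldhb, Egln3, P4ha1 and P4ha2) and 2 fell (Egln1 and Car9). Of all genes, 21.2% passed the threshold (10.3% higher and 10.9% lower), close to the share of the members, 9 of 35. Without the fold threshold 26 members passed, 18 of them higher, beside 45.6% of all genes. Egln3 rose 2.25-fold (1.17 ± 0.10 (SE)). Hk2 and Kdm3a, inside the lowered stretch of chromosome 6, had log2 fold changes of -0.49 and -0.32, with medians of -0.75 in the 50 nearest genes of each, and Egln1 one of -0.74 beside a median of -0.50. Of the 9 members that had fallen in Tet3 m/m cells on day 3, Egln1 also fell here and 8 did not pass the threshold. Of these 8, Ldha (0.064 ± 0.064 (SE)), Pdk1 (0.00047 ± 0.058 (SE)) and Ero1a (0.37 ± 0.070 (SE)) did not have a negative log2 fold change, and Hk2, Ankrd37 (-0.29 ± 0.16 (SE)), Kdm3a, Ndrg1 and Ddit4 had one. Ndrg1 stood at 1428 and 1372 (Tet3+/+), 1035 and 1201 (Tet3 m/m) and 981 and 1086 (Tet3-/-), Ddit4 at 7791 and 7576 (Tet3+/+), 6378 and 6827 (Tet3 m/m) and 5612 and 5834 (Tet3-/-) and Kdm3a at 3427 and 3454 (Tet3+/+), 2702 and 2800.0 (Tet3 m/m) and 2961 and 3156 (Tet3-/-).

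Set directly against each other with the empty vector, Tet3-/- cells were lower than Tet3 m/m cells in 23 members and higher in 2, Pfkfb4 (0.72 ± 0.16 (SE)) and Car9 (0.69 ± 0.22 (SE)), where 39.6% of all genes passed the threshold and 20.6% as lower. The normalized counts of Pfkfb4 were 261 and 246 (Tet3+/+), 219 and 229 (Tet3 m/m) and 404 and 338 (Tet3-/-). Egln3 differed 19.0-fold and Pfkp 10.4-fold. The call of Car9 was lost without Tet3 m/m replicate 2 (adjusted p = 0.0812). These values use the same samples as the 2 comparisons with Tet3+/+.

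Hif1a did not fall in this experiment either. With the empty vector it stood at 6180.0 and 6221 (Tet3+/+), 7029.9 and 7009 (Tet3 m/m) and 8314 and 7997 (Tet3-/-), highest in the Tet3-/- samples, and did not pass the fold threshold (0.18 ± 0.047 (SE) in Tet3 m/m and 0.40 ± 0.047 (SE) in Tet3-/-).

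Dnmt1 is the methyltransferase that copies DNA methylation after replication, and the Dnmt1 vector was compared with the empty vector in each genotype. In Tet3+/+ cells 1 member, Aldoc, fell, from 1809.8 and 1582 to 1163 and 969 normalized counts (-0.67 ± 0.12 (SE), adjusted p = 0.00262); 1.17% of all genes passed the threshold there, 0.753% as lower. That call was lost without empty vector sample a or without Dnmt1 replicate 2. With no limit on the fold, 13 members had an adjusted p under 0.05 and all 13 were lower, beside 2.84% of all genes that were lower by that rule. In Tet3 m/m cells the limma test called 0 members, against 2.46% of all genes, and edgeR and DESeq2 called 0 as well. An unadjusted p under 0.05 was found for 16 members (6 higher, 10 lower). By the adjusted p of limma alone, 4 were higher and 6 lower, against 6.73% and 3.47% of all genes. Without Dnmt1 replicate 1 of Tet3 m/m, 1 member was called.

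In Tet3-/- cells the Dnmt1 vector lowered 4 members further, all of them already low with the empty vector, while 3.53% of all genes passed the threshold and 1.02% as lower. No member was called higher by limma, edgeR or DESeq2, and 5 had an unadjusted p under 0.05 in that direction. By the adjusted p of limma alone, 16 members were lower and 3 higher, against 5.96% and 7.46% of all genes. Bnip3 went from 1254 and 1517 to 809.6 and 649.8 normalized counts (-0.93 ± 0.087 (SE), adjusted p = 6.5e-07), and Slc16a3 from 4162 and 5085 to 2980.5 and 2323 (-0.81 ± 0.088 (SE), adjusted p = 3.47e-06). Ldha went from 19786 and 23566 to 14416 and 12739 (-0.67 ± 0.064 (SE)), and Aldoc from 434 and 507 to 333 and 236 (-0.74 ± 0.12 (SE)). The 2 vectors did not overlap for any of the 4 genes, which also held for 52.0% of all genes. Without Dnmt1 replicate 2 of Tet3-/-, 2 members remained called, since Ldha and Aldoc went below the fold threshold; Ldha also did so without empty vector replicate 2.

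Whether the vector acted differently between genotypes was tested by the interaction term, with no limit on the fold. Between Tet3-/- and Tet3+/+ 11 members passed, against 9.71% of all genes, and 7 of the 11 had a more negative effect in Tet3-/-. Without Dnmt1 replicate 1 of Tet3+/+ the count was 7. These 7 included Bnip3 (-0.65 ± 0.12 (SE), adjusted p = 0.00162), Slc16a3 (-0.57 ± 0.12 (SE)) and Ldha (-0.54 ± 0.091 (SE)). Dnmt1 RNA itself rose more in Tet3-/- than in Tet3+/+ cells (0.42 ± 0.092 (SE), adjusted p = 0.00502), and its part in these differences was not tested. The other direction included Pfkfb3 (0.62 ± 0.10 (SE)), which went from 2694 and 3046 to 3484 and 4128 normalized counts in Tet3-/- and from 2219 and 2149 to 1826 and 1947 in Tet3+/+. The interaction for Aldoc, which fell in both genotypes, was -0.07 ± 0.18 (SE) with an adjusted p of 0.869. Between Tet3 m/m and Tet3+/+ 5 members passed, against 1.31% of all genes, and leaving out single samples moved that count. It was 0 without Dnmt1 replicate 2 of Tet3+/+, 13 without either Tet3-/- sample with Dnmt1, and 1 to 3 without any of the other Tet3+/+ or Tet3 m/m samples. Tpi1 (0.37 ± 0.068 (SE), adjusted p = 0.00525) had the smallest p. It went from 24113 and 25366 to 28831 and 27502 normalized counts in Tet3 m/m and from 28676 and 28735 to 26210.3 and 24328 in Tet3+/+. Its call was lost only without Dnmt1 replicate 2 of Tet3+/+, and the other 4 lost theirs without any of 6 or more single samples.

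The Tet3-CD experiment asked what the catalytic domain does when it is put back. It has 1 sample per genotype and vector and therefore no test; ratios of the value plus 1 describe these libraries, and a 1.5-fold ratio is counted. In Tet3-/- cells Tet3-CD went with lower levels of 21 of the 35 members and higher levels of 0, where 21.5% of all genes were past that fold and 11.6% were lower. In Tet3+/+ and Tet3 m/m cells 0 members were past it, against 13.4% and 10.1% of all genes. The median log2 ratio of the members was -0.78 in Tet3-/-, -0.18 in Tet3+/+ and -0.029 in Tet3 m/m. Tet3 RNA, which may include reads from the vector, went from 4755 to 5441 normalized counts in Tet3+/+, from 1849.9 to 5232 in Tet3 m/m and from 2069.8 to 2759 in Tet3-/- cells.

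The ratios in Tet3-/- cells furthest from 0 were those of Egln3, Ankrd37, Slc16a3 and Bnip3. Egln3 went from 1108 to 164 normalized counts with Tet3-CD, a log2 ratio of -2.74. In Tet3+/+ it went from 1160.2 to 779, and in Tet3 m/m from 182 to 226. Bnip3 went from 3022 to 712 in Tet3-/-, and Ankrd37 from 234 to 51. The Tet3-/- library with Tet3-CD thus stood near the 2 Tet3 m/m libraries for these 3 genes, and the Tet3-/- library with the empty vector near the 2 Tet3+/+ libraries. The lactate exporter gene Slc16a3 went from 8076 to 1888 in Tet3-/-, and Aldoc from 777 to 196. Ldha went from 38614 to 12493 and Pfkl from 14546 to 4693. Pdk1 went from 3324 to 1157 and Pgk1 from 22719.8 to 10291 normalized counts in Tet3-/-. All 6 of these genes were lower with Tet3-CD than with the empty vector by more than 1.5-fold. Ndrg1 was highest in the Tet3-/- library with the empty vector, at 8434, and lowest in the 2 Tet3 m/m libraries, at 402 and 351. Hif1a lay between 6354 and 7528 normalized counts in all 6 libraries.

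**Figure D5:**
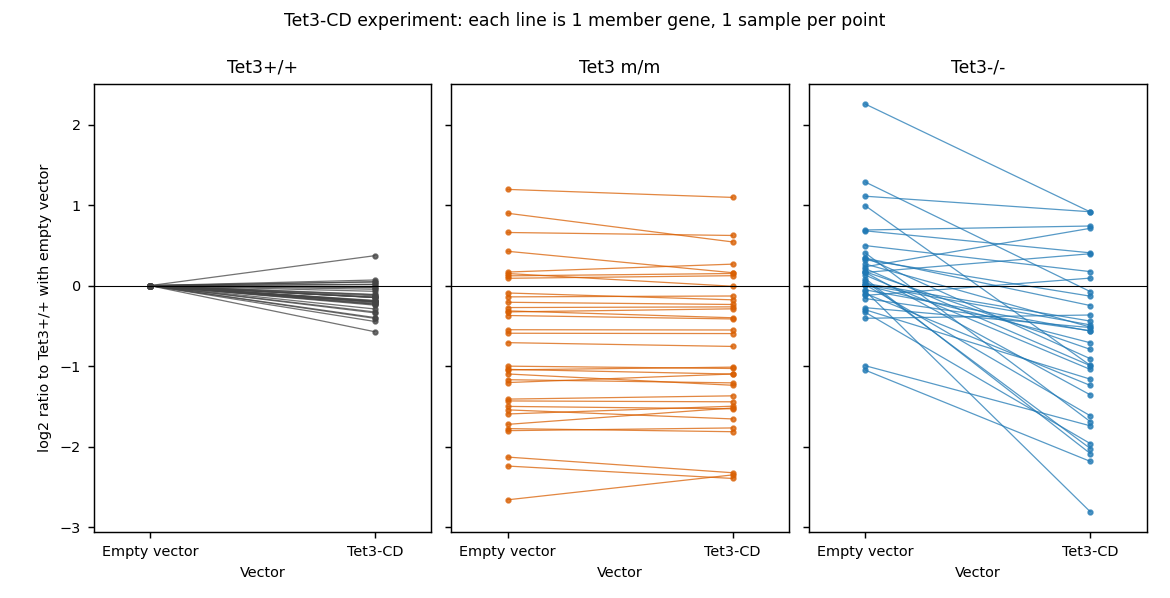
Each line joins the empty vector and the Tet3-CD library of 1 genotype for 1 of the 35 genes; the y axis is the log2 ratio of the value plus 1 to the Tet3+/+ library with the empty vector. In Tet3+/+ and Tet3 m/m 0 lines move by more than 1.5-fold, with log2 ratios from -0.57 to 0.37 and from -0.36 to 0.31, and in Tet3-/- 21 members are lower by more than that.

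With the empty vector the 2 transfection experiments put the genotypes in different orders. In the Tet3-CD experiment the Tet3 m/m library with the empty vector was lower than the Tet3+/+ library by more than 1.5-fold in 19 members and higher in 3 (36.3% of all genes were past that fold in either direction and 16.1% were lower), with log2 ratios of -2.66 for Egln3, -2.24 for Bnip3 and -1.43 for Ldha. For Hk2 and Kdm3a on chromosome 6 the log2 ratios were -1.0 and -1.17, beside medians of -0.72 and -0.88 in their 50 nearest genes. The log2 fold changes of Egln3, Bnip3 and Ldha in the Dnmt1 experiment were 1.17, 0.31 and 0.06. For Tet3-/- against Tet3+/+, 6 members were higher and 2 lower past that fold in the Tet3-CD experiment (27.1% of all genes), with -0.07 for Egln3, 0.06 for Bnip3 and 0.01 for Ldha, where the Dnmt1 experiment gave -3.08, -1.90 and -1.60. In all, 21 members were lower in both Tet3-/- samples than in both Tet3+/+ samples of the Dnmt1 experiment and higher in the Tet3-/- library of the Tet3-CD experiment, a pattern found in 19.1% of the 17182 genes of both tables. For Tet3 m/m 16 members were higher in the first and lower in the second, which held for 15.4% of those genes. The reverse order was found in 1 member for Tet3-/- and 2 members for Tet3 m/m, and in 20.0% and 16.0% of those genes. The Tet3-CD experiment has a single library per group, and these orders count ratios of any size there. Differences between the experiments, vectors, cultures, collection times and blasticidin treatment cannot be told apart. Against Tet3+/+ the member medians for Tet3 m/m and Tet3-/- were 0.16 and -0.93 on the log2 scale with the empty vector of the Dnmt1 experiment, -0.71 and 0.13 with that of the Tet3-CD experiment, and -0.29 in both on day 3. Between the libraries with Tet3-CD they were -0.60 and -0.53, where 18 members were lower and 3 higher by more than 1.5-fold in Tet3 m/m and 16 lower and 4 higher in Tet3-/- (34.1% and 28.8% of all genes were past that fold).

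Marker lists of other cell types differed between the genotypes in these experiments too. Each sum weighs markers by their level, so a few abundant genes can set most of it. Over the Dnmt1 experiment Krt8 and Krt18 reached 79615 and 54024 among the trophoblast markers. Cdx2, Elf5 and Ascl2 stayed at or below 361 there. Lama1 reached 148511 among the endoderm markers and Col1a1 28182 among the fibroblast markers. In the Dnmt1 experiment with the empty vector the summed normalized count of 10 endoderm markers was 56521 to 60875 for Tet3+/+, 173834 to 195506 for Tet3 m/m and 16256 to 16803 for Tet3-/- samples, with 9 of 10 called higher in Tet3 m/m and 8 of 10 called lower and 1 higher in Tet3-/-. The sum of 8 pluripotency markers was 22737 to 23023 for Tet3+/+, 65543 to 66476 for Tet3 m/m and 4411 to 4620.3 for Tet3-/-, with 7 called higher and 1 lower in Tet3 m/m and 7 called lower in Tet3-/-. Sums of 8 trophoblast markers ran the other way, from 50529.8 to 50572 for Tet3+/+, 19416 to 21647 for Tet3 m/m and 105919 to 109666 for Tet3-/-, with 6 of 8 called lower in Tet3 m/m and 3 higher and 1 lower in Tet3-/-. In the Tet3-CD experiment the endoderm sum was 250487 for Tet3+/+, 43337 for Tet3 m/m and 55411 for Tet3-/- with the empty vector, and 24357 in Tet3-/- with Tet3-CD. On day 3, where Apoa1 of this list is not listed, it was 13699.7 to 18336 for Tet3+/+, 20227 to 36482 for Tet3 m/m and 11608 to 14235 for Tet3-/-. The fibroblast list, whose 8 genes would mark feeder cells, had sums of 18795 to 20644 for Tet3+/+, 3789 to 4080.2 for Tet3 m/m and 38124 to 38222 for Tet3-/- with the empty vector of the Dnmt1 experiment, with 1 called higher and 5 lower in Tet3 m/m and 4 higher and 1 lower in Tet3-/-. On day 3 that sum was 18576 to 29439 for Tet3+/+, 11994 to 22355 for Tet3 m/m and 44415 to 49354 for Tet3-/-, and the trophoblast sum was 61198 to 86626, 45909 to 99449 and 122822 to 143130 in the same order. Against Tet3+/+ on day 3, 1 fibroblast marker was called higher and 2 trophoblast markers lower in Tet3 m/m. In Tet3-/- 0 of either list were called by limma or edgeR, while 3 fibroblast and 2 trophoblast markers had an unadjusted p under 0.05 and DESeq2 called 1 and 2. With the empty vector of the Tet3-CD experiment (1 library each) the pluripotency sum was 6967 for Tet3+/+, 15051 for Tet3 m/m and 10343 for Tet3-/-. In the same order the trophoblast sum was 39904, 112105 and 96885, and the fibroblast sum 31297, 28475 and 24083. In Tet3-/- with Tet3-CD the pluripotency sum was 6432, the trophoblast sum 131244 and the fibroblast sum 30440.

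The 12 neural progenitor markers, the labelled fate, moved with the genotype too. On day 3 their sum was 19103 to 26428 for Tet3+/+, 14292 to 18915.5 for Tet3 m/m and 24309 to 28253 for Tet3-/-, with 9 called lower in Tet3 m/m (median log2 fold change -1.66) and 1 higher and 2 lower in Tet3-/- (median -1.15). With the empty vector of the Dnmt1 experiment it was 15135 to 15809 for Tet3+/+, 17558 to 18095.7 for Tet3 m/m and 17657 to 17952.5 for Tet3-/-. There 6 markers were called lower and 2 higher in Tet3 m/m (median -1.23), and 6 higher and 3 lower in Tet3-/- (median 1.03). In the Tet3-CD experiment the sum with the empty vector was 9249 for Tet3+/+, 18228 for Tet3 m/m and 9643 for Tet3-/-, and 15148 in Tet3-/- with Tet3-CD. Abundant markers weigh most in these sums. On day 3 Nes stood at 6667 to 21181, beside at most 6551 for Sox2. Hes5 was at 0 in 1 day 3 sample, Pou3f2 in 1 sample of the Dnmt1 experiment, and Fabp7 in 1 sample of each transfection experiment. Of the other lists, Apoa1 among the endoderm markers and Elf5 among the trophoblast markers were at 0 in 1 sample, Lum among the fibroblast markers in 2, and Mesp1 among the mesoderm markers was not listed. The sum of the 8 other mesoderm markers on day 3 was 3619 to 4177 for Tet3+/+, 2823 to 3924 for Tet3 m/m and 2165 to 2690 for Tet3-/-. With the empty vector it was, in that order, 3965 to 4127, 2481 to 2649 and 3589 to 3733 in the Dnmt1 experiment. In the Tet3-CD experiment it was 3083, 3404 and 3530. The part of cell composition in the member differences was not tested.

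Isozyme shares were computed per kb of exon within each sample. Aldoc made up 1.91% ± 0.0366 of aldolase RNA for Tet3+/+, 1.54% ± 0.0744 for Tet3 m/m and 1.11% ± 0.128 for Tet3-/- cells on day 3 (SD, 3, 3 and 2 samples), with no overlap between the genotypes. Ldhb made up 9.17% ± 0.161 of lactate dehydrogenase RNA for Tet3+/+, 14.4% ± 0.517 for Tet3 m/m and 21.8% ± 2.51 for Tet3-/- cells that carried the empty vector in the Dnmt1 experiment (SD, 2 samples each), so its share was higher in both mutants, through a higher Ldhb in one and a lower Ldha in the other. Pfkm made up 16.9% ± 0.0860 of phosphofructokinase RNA for Tet3+/+, 12.5% ± 0.318 for Tet3 m/m and 38.7% ± 3.29 for Tet3-/- in the same samples. Hk1 made up 20.8% ± 0.121 of hexokinase RNA in Tet3+/+ and 27.0% ± 1.35 in Tet3 m/m on day 3, beside the lower Hk2. With the empty vector of the Tet3-CD experiment (1 library each) some of these orders differed. For Tet3+/+, Tet3 m/m and Tet3-/- the Aldoc share there was 1.13%, 0.561% and 1.76%. In the same order the share was 12.7%, 23.2% and 9.80% for Ldhb, 18.3%, 30.0% and 25.3% for Pfkm and 15.1%, 28.6% and 25.6% for Hk1.

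Other HIF pathway and glycolysis genes moved in both directions with the empty vector of the Dnmt1 experiment, where 24.9% of all genes passed the threshold in Tet3-/- and 21.2% in Tet3 m/m. Of 40 other HIF pathway genes, 12 were lower and 4 higher in Tet3-/- with the empty vector, with Angptl4 at -1.69, Lox at 1.68 and Ak4 at -1.66 on the log2 scale, and 6 were higher and 3 lower in Tet3 m/m, with Arnt2 at -1.14 and Epas1, the paralog HIF2A, at 1.09. On day 3, where 10.2% of all genes passed in Tet3 m/m, the same list had 6 lower and 1 higher there (Tfrc -1.04, Pgm1 -0.98 and Stc2 -0.94) and 0 calls in Tet3-/- by limma, where 14 had an unadjusted p under 0.05, edgeR called 0 and DESeq2 called 2. Of 28 other genes of glycolysis and pyruvate metabolism, 4 were lower and 2 higher in Tet3-/- with the empty vector (Hkdc1 -3.18, Slc16a7 2.46, Pklr -2.45) and 7 higher and 3 lower in Tet3 m/m, led by Pdha1, a subunit of pyruvate dehydrogenase, at 2.93. The 16 citric acid cycle genes had 1 call in Tet3-/- (Suclg2, -0.72) and 1 in Tet3 m/m (Suclg1, -0.80) with the empty vector. The 17 respiratory chain genes had 0 calls by limma, edgeR or DESeq2 in either mutant in that experiment, although 6 had an unadjusted p under 0.05 in Tet3-/- (median log2 fold change -0.078) and 12 in Tet3 m/m (median 0.16). Of 7 pentose phosphate pathway genes 3 were lower in Tet3 m/m on day 3 (Rpia -1.50, Pgls -1.04, Tkt -0.59), and 1 was lower in Tet3-/- with the empty vector (Tkt, -0.70). The 14 integrated stress response genes went both ways: with the empty vector 3 were higher and 4 lower in Tet3-/-, with Atf3 at 1.89, Chac1 at -1.61 and Asns at -1.47, and on day 3 Atf3 rose by 1.71 and Ppp1r15a by 1.18 in Tet3-/- cells.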

How the data were processed

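RNA-seq of 26 samples was used; whole-genome bisulfite, CUT&Tag and hmeDIP data of the series were not analysed here. Per the study's methods, the authors trimmed reads with Trim Galore 0.6.7, aligned them to mm39 with STAR 2.7.9a, counted genes with featureCounts (largest overlap) and normalized with DESeq2; the labels list mm10. The deposited values are a signal, reads per gene divided by a size factor, in 1 table per experiment (day 3, Dnmt1, Tet3-CD). Division by 1 factor per sample gave whole reads, within 0.01 of an integer, for 100% of values, and those reads give the depth per sample. Lengths, gene order and promoters are from GENCODE M21 and RefSeq GRCm38.p6 and were joined by symbol (positions were found for 92.7% of tested genes on day 3 and 93.5% in the Dnmt1 experiment).

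The 35 members and all lists were chosen with earlier results of these data known. Genes with a mean of at least 10 were tested on log2(value + 1) with limma 3.58.1 (R 4.3.3, trended empirical Bayes, all groups of an experiment in 1 fit) and Benjamini-Hochberg adjustment over all of them (17915 genes on day 3, 18055 in the Dnmt1 experiment). This understates the fold of low genes. Called genes had an adjusted p under 0.05 and a fold above 1.5; differences of the Dnmt1 effect needed the adjusted p only. The Tet3-CD experiment has no replicates and no test. The code was tested on simulated data. Named genes were the members, with values in every sample for those called in at least 1 comparison and Hif1a, and up to 3 genes per pathway list with the largest absolute change among those called. A gene that this rule would name is not reported here. Alternatives were other pseudocounts and filters, edgeR 4.0.16 and DESeq2 1.42.0 on the recovered reads, TMM rescaling, only the compared groups, a replicate block, no fold threshold, members off chromosomes 6 and 8, and leaving out each replicate.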

Additional observations from a re-analysis of the deposited data

Results flagged for a closer look

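The effect of the Dnmt1 vector on 16 member and genotype combinations differed from its effect in Tet3+/+ cells by the interaction term (limma, adjusted p under 0.05). By that rule 1.31% of all genes differed for Tet3 m/m and 9.71% for Tet3-/-. For Tet3 m/m the differences were 0.34 for Aldoa, 0.37 for Tpi1, 0.30 for Pgk1, 0.28 for Pkm and -0.29 for Ldhb on the log2 scale, and each is the effect in Tet3 m/m minus that in Tet3+/+. For Tet3-/- they were 0.45 for Slc2a1, 0.50 for Eno2, 0.62 for Pfkfb3 and 0.49 for P4ha2, and -0.31 for Pfkl, -0.22 for Tpi1, -0.54 for Ldha, -0.57 for Slc16a3, -0.41 for Pdk1, -0.65 for Bnip3 and -0.49 for Ndrg1. The call of Tpi1 in Tet3-/- was lost with edgeR, TMM rescaling or a pseudocount of 0.1. That of Ldhb in Tet3 m/m was lost with TMM rescaling or a pseudocount of 0.1. Pfkl, Eno2 and Ndrg1 in Tet3-/- lost theirs without some single samples. With the empty vector, 22 members had opposite directions in the Dnmt1 and Tet3-CD experiments for Tet3-/- against Tet3+/+. For Tet3 m/m against Tet3+/+ 18 members did. In the Tet3-CD experiment the direction is the sign of 1 ratio of any size. Past 1.5-fold, 6 members were higher and 2 lower there in Tet3-/-, and 3 higher and 19 lower in Tet3 m/m. Of the 17182 genes of both tables, 19.1% were lower and then higher and 20.0% higher and then lower in Tet3-/-, and 16.0% and 15.4% in Tet3 m/m. The difference between the experiments was not tested, because the Tet3-CD experiment has 1 library per group.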

How the results depend on the processing

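No log2 fold change of a called member reversed under any alternative run. Of the alternative values for single members, 1706 kept their call and 88 lost it. The count of members called in Tet3 m/m against Tet3+/+ on day 3 was 9 and became 5 on chromosomes other than 6 and 8, and 5 to 10 when single samples were left out. In Tet3-/- against Tet3+/+ it was 1 and became 0 with a pseudocount of 0.1 or a mean of at least 50, 6 with DESeq2 or only the compared groups, and 0 to 7 without single samples. In Tet3-/- against Tet3 m/m it was 3 and became 1 off chromosomes 6 and 8, and 3 to 5 without single samples. With no fold threshold the counts were 26 for Tet3 m/m against Tet3+/+ with the empty vector, and 13, 10 and 19 for the Dnmt1 vector in Tet3+/+, Tet3 m/m and Tet3-/-. For these last 3 the counts past the fold threshold were 1, 0 and 4, and without single samples 0 to 1, 0 to 1 and 2 to 6. For the difference of the Dnmt1 effect in Tet3 m/m the count of 5 became 8 with edgeR or DESeq2, 3 off chromosomes 6 and 8, and 0 to 13 without single samples, and in Tet3-/- the count of 11 became 7 to 12. Over the alternatives the member medians ran from -1.24 to -1.05 for Tet3-/- against Tet3 m/m with the empty vector, from -0.22 to -0.12 for the Dnmt1 vector in Tet3-/-, and from -0.13 to 0.043 for its difference from Tet3+/+. The cause of these changes was not tested. Same-numbered samples did not deviate together (correlations from -0.098 to 0.082 on day 3 and from -0.053 to 0.029 in the Dnmt1 experiment), and a replicate block kept 42 of 42 member calls. The empty vector Tet3+/+ samples carry no distinct number and could not enter that fit. With 1 to 3 samples per group, small differences may have been missed.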
